A study of Mus musculus with 6 samples.

Results

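The Slc25 family is a large family of solute carriers, most of which lie in the mitochondrial inner membrane, and its expression was examined in liver RNA-seq libraries of mice fed a high-fat diet with or without allantoin. Members were all protein-coding genes whose symbol starts with Slc25a in GENCODE release M21 of GRCm38, and 47 of the 54532 genes with an Ensembl identifier met this rule. All 47 were listed in the deposited count table, and 40 of them passed the filter on low counts that left 12795 genes for testing. Wild-type male C57BL/6J mice entered at 8 weeks of age, and all of them received a high-fat diet (HFD) for 4 weeks and for the 4 weeks that followed. During the latter period the HFD+Allantoin-H group drank water with allantoin, an oxidation product of uric acid, at 0.3 mg/mL, while the HFD group drank water without it. The labels also name 0.06 mg/mL and do not give the dose of single libraries, so the higher dose was taken from the study's description of the sequenced group. There were 3 libraries in each group, HFD replicates 1 to 3 and HFD+Allantoin-H replicates 4 to 6. The comparison asks which mitochondrial carriers differ in the liver of mice on the high-fat diet when allantoin is added.

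Most Slc25 carriers move metabolites across the inner membrane, which is otherwise closed to most charged molecules. They exchange ADP for ATP, bring in phosphate, and link the citric acid cycle, the urea cycle, amino acid breakdown, fatty acid oxidation and heme synthesis with reactions in the cytosol. Several have close paralogs that carry the same substrate in different tissues. In hepatocytes the malate-aspartate shuttle, citrate export for lipid synthesis, ornithine entry for the urea cycle and acylcarnitine entry for fatty acid oxidation each pass through a member of this family.

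The libraries held 11326372 to 14601457 counts. The 10 most abundant genes took 26.9% to 42.9% of the counts of the HFD libraries and 18.5% to 23.3% of the HFD+Allantoin-H libraries, and genes of the mitochondrial chromosome took 17.9% to 36.4% and 6.90% to 11.3%. Values are normalized CPM (counts scaled to a common library size), in which the edgeR TMM factors, 0.756 to 0.951 in HFD and 1.12 to 1.19 in HFD+Allantoin-H, offset this difference in composition. All Slc25 genes are nuclear. HFD replicate 2 stood apart by adipocyte transcripts, with Adipoq, the adipose hormone adiponectin, at 51.4 CPM against 0 to 0.0733 CPM in the other libraries. HFD replicate 3 stood apart by Sox9, a regulator of bile duct cells, at 43.6 CPM against 8.30 and 13.0 CPM in the other HFD libraries. Sox9 also differed between the groups, with 2.16 to 2.78 CPM in HFD+Allantoin-H. Hepatocyte markers were present throughout, with Alb, the serum protein albumin, between 54402 and 82145 CPM. A library of bulk liver cannot tell fewer cells of a type from less RNA per cell.

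At an adjusted p under 0.05, 10 of the 40 tested carriers (25.0%) differed between the groups, where 24.3% of all tested genes did. In HFD+Allantoin-H 7 carriers were higher (17.5%, against 11.3% of all tested genes) and 3 were lower (7.5%, against 13.0%). The 7 were Slc25a13, Slc25a12, Slc25a10, Slc25a23, Slc25a44, Slc25a46 and Slc25a48, and the 3 were Slc25a45, Slc25a51 and Slc25a36. The share called was near the background of the whole transcriptome. The values of the groups did not overlap in 17 carriers (42.5%, against 44.3% of all tested genes), 13 with higher and 4 with lower values in HFD+Allantoin-H. Log2 fold changes, given below with their standard error (SE), ran from -1.26 to 1.15, with a median of 0.19 against -0.03 over all tested genes. Only 2 carriers (5.0%) passed an absolute log2 fold change of 1, which 19.5% of all tested genes did, although the median absolute log2 fold change was 0.45 for the carriers and 0.49 for all genes. An unadjusted p under 0.05 was reached by 16 carriers (40.0%, against 39.1% of all tested genes). Calls changed when 1 library was left out, a fit that also has fewer libraries to test with. The log2 fold changes of the 10 called carriers kept their sign in each such fit. Without HFD+Allantoin-H replicate 5 only Slc25a13 was called, without replicate 4 there were 3 higher and 1 lower, and without replicate 6 there were 4 higher and 1 lower, while the share of all genes called dropped to 7.75%, 9.80% and 11.6%. Leaving out HFD replicate 3 gave 8 higher and 5 lower, with 28.6% of all genes called.

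**Figure D1:**
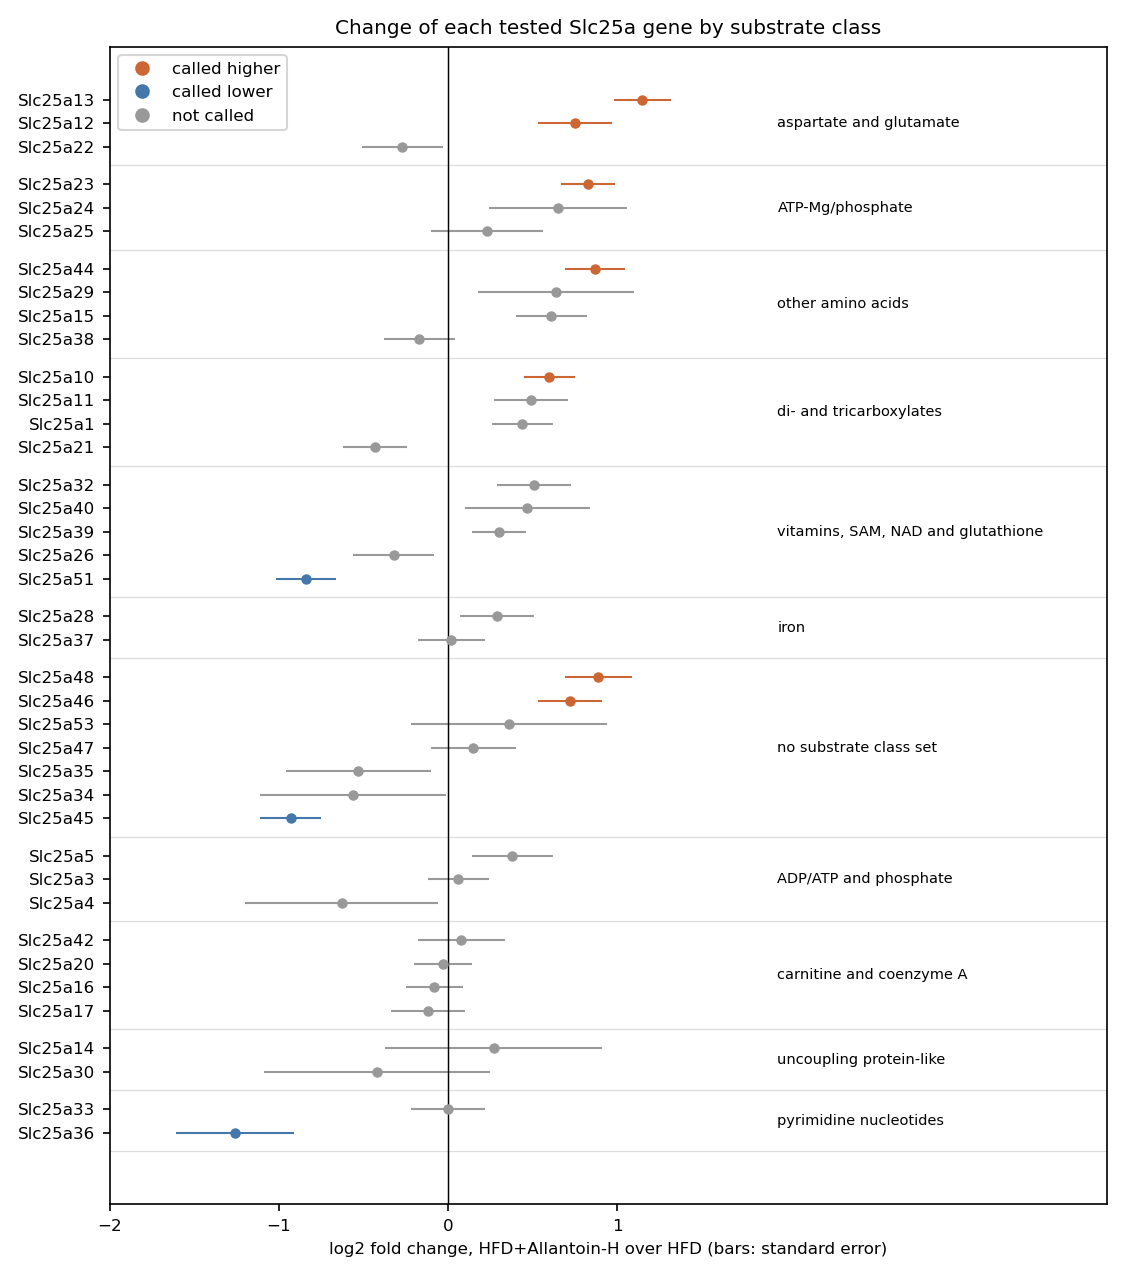
Log2 fold change of HFD+Allantoin-H over HFD (horizontal axis) for 39 of the 40 tested Slc25a genes, grouped by substrate class. Points are edgeR estimates with standard error bars, orange for the 7 genes called higher, blue for the 3 called lower and grey for the others; 24 points lie above 0 and 15 below.

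Promoter windows are shown for 4 of the called carriers, the aspartate/glutamate pair Slc25a13 and Slc25a12 and the lower carriers Slc25a36 and Slc25a45, so that genes of one substrate and of each direction can be compared. They come from RefSeq on GRCm38.p6 and run from 250 bases before to 50 bases after the transcription start, 5′ to 3′ on the strand of the gene. Slc25a13 is at chr6:6217124-6217423 (minus strand), Slc25a12 at chr2:71367706-71368005 (minus strand), Slc25a36 at chr9:97110992-97111291 (minus strand) and Slc25a45 at chr19:5877572-5877871 (plus strand). Capitals mark matches on either strand to any of 5 motifs that do not contain one another, the E-box, the CCAAT box, the half-site of nuclear receptors, the TATA box and the half-site of NRF1, whose letters are given beside their frequencies below the windows.
Slc25a13: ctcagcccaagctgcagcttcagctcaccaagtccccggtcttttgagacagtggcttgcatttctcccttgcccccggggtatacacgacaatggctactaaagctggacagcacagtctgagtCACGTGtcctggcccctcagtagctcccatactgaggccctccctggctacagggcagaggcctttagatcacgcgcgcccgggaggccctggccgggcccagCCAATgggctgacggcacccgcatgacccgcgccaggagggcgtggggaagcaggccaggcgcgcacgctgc
Slc25a12: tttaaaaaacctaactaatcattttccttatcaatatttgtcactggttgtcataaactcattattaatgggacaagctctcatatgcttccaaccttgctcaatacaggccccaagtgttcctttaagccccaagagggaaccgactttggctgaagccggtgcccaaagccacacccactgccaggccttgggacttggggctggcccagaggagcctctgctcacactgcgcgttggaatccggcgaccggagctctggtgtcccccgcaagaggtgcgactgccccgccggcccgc
Slc25a36: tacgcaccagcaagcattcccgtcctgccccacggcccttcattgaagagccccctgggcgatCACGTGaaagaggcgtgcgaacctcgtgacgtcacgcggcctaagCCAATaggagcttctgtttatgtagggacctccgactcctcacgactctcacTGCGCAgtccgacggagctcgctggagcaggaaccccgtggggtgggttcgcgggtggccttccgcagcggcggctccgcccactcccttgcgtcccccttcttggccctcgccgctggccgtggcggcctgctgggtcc
Slc25a45: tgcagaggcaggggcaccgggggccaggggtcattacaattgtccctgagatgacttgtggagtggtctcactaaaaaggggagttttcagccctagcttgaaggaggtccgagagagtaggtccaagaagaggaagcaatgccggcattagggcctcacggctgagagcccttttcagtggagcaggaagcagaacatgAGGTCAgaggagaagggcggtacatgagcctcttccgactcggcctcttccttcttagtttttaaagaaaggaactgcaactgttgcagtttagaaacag
The window of Slc25a13 held an E-box and a CCAAT box and that of Slc25a12 held none of the 5 motifs. Slc25a36 held an E-box, a CCAAT box and the NRF1 half-site, and Slc25a45 held the nuclear receptor half-site. Windows were found for 36 of the 47 members, 46 windows in all. The E-box (letters CACGTG) occurred in 8 of these windows (17.4%) and in 7.15% of all 32851 mouse windows of that length. The CCAAT box, named by its own letters, occurred in 22 (47.8%, against 37.4% of all windows). The nuclear receptor half-site, searched as AGGTCA, was found in 4 member windows (8.70%) and in 16.3% of all windows. The TATA box, searched with the letters TATAAA, was found in 2 member windows (4.35%) and in 13.6% of all windows. For the NRF1 half-site, searched as TGCGCA, there were 4 member windows (8.70%) against 7.76% of all windows. The median GC content was 59.3% in the members' windows and 52.7% in all windows. These matches describe letters and were not tested for binding.

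To compare levels between genes, normalized CPM was divided by the length of the longest transcript. In HFD livers Slc25a5, an ADP/ATP carrier, was highest at 226 ± 69.6 CPM per kb (SD, n = 3). It was followed by Slc25a47, a carrier found mainly in liver, at 173 ± 43.5 CPM per kb and Slc25a39, which carries glutathione, at 158 ± 11.4 CPM per kb (SD, n = 3). The spreads of these 3 neighbours overlapped. Slc25a10, the dicarboxylate carrier, came next at 90.3 ± 3.77 CPM per kb, below Slc25a39 by more than either spread. Slc25a20, Slc25a1 and Slc25a3 followed at 62.6, 54.6 and 49.0 CPM per kb, with spreads of 9.26, 6.62 and 8.72 that overlapped between neighbours. Slc25a13 stood in place 8 in HFD at 40.2 ± 4.91 CPM per kb and in place 5 in HFD+Allantoin-H at 89.4 ± 10.2 CPM per kb (SD, n = 3). At the low end of the tested genes, Slc25a53 was at 0.213 ± 0.109 CPM per kb in HFD (SD, n = 3). Slc25a5, Slc25a47, Slc25a39, Slc25a10 and Slc25a1 were the 5 carriers with the highest mean share of the family's summed CPM per kb over all libraries. Together they held 56.6% to 62.0% of that sum in HFD and 60.2% to 61.8% in HFD+Allantoin-H. Summed over the family, CPM was 2561, 2857 and 2908 in HFD replicates 1 to 3 and 3403, 3582 and 3159 in HFD+Allantoin-H replicates 4 to 6, without overlap.

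**Figure D2:**
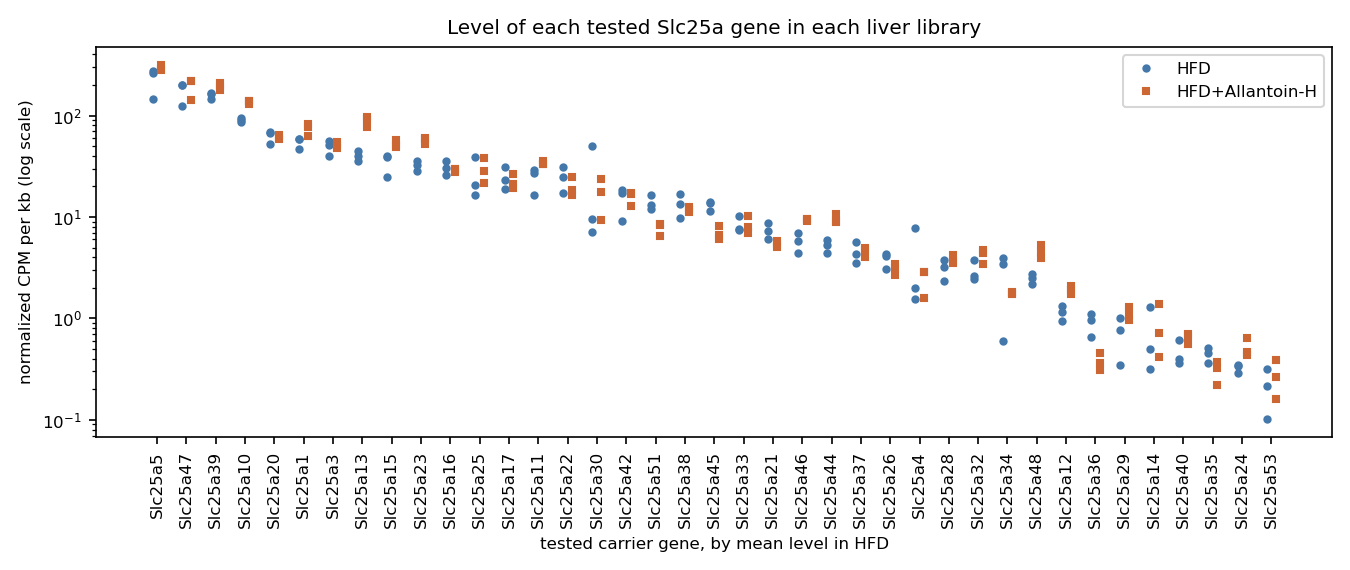
Normalized CPM per kb of the longest transcript (log axis) for 39 of the 40 tested Slc25a genes in each of the 6 libraries, ordered by the HFD mean. Circles are HFD and squares HFD+Allantoin-H; the genes span from 226 CPM per kb for Slc25a5 to 0.213 CPM per kb for Slc25a53 in HFD, and 3 genes exceed 100 CPM per kb there.

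The carriers of aspartate and glutamate held the largest increase of the family. Slc25a13 (ENSMUSG00000015112, chromosome 6, 6041218 to 6217173), the aspartate/glutamate carrier of liver that feeds the malate-aspartate shuttle and the urea cycle, was at 110.5, 125 and 141 CPM in HFD replicates 1 to 3 and at 288, 305 and 243 CPM in HFD+Allantoin-H replicates 4 to 6. Every HFD+Allantoin-H library was above every HFD library. It rose 2.22-fold, a log2 fold change of 1.15 ± 0.17 (SE, adjusted p = 0.00403), and was called in 15 of 15 alternative settings, with log2 fold changes of 1.05 to 1.56. Slc25a12 (ENSMUSG00000027010, chromosome 2, 71271063 to 71367749), the paralog known from heart, muscle and brain, was far lower, at 7.42, 8.39 and 5.94 CPM in HFD and 12.2, 11.1 and 13.2 CPM in HFD+Allantoin-H. Its groups did not overlap either, and its log2 fold change was 0.75 (standard error 0.22, adjusted p = 0.0352). That call was lost with each library's trend in length and GC content removed (0.54, adjusted p = 0.0979) and without HFD replicate 1 or 3 or any one of HFD+Allantoin-H replicates 4 to 6 (0.63 to 0.82, adjusted p up to 0.121). Slc25a12 shares 247 nearly identical bases with Adpgk, which has 875 counts in all against 775 for Slc25a12, so reads of that stretch may have been assigned to either. The log2 ratio of Slc25a12 to Slc25a13 was -4.12 ± 0.39 in HFD and -4.51 ± 0.29 in HFD+Allantoin-H (SD, n = 3; exact permutation test, two-sided, p = 0.3), where 3 against 3 libraries allow no p below 0.1. Slc25a22, a glutamate carrier, showed a log2 fold change of -0.27 (edgeR adjusted p = 0.439), and the second glutamate carrier, Slc25a18, had at most 2 counts in a library. The summed CPM of the class was 290.3, 270.2 and 243 in HFD and 405, 455 and 349 in HFD+Allantoin-H.

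Among the carriers of di- and tricarboxylates, Slc25a10 rose, and the others passed the test in some alternative settings and not in the main one. Slc25a10 (ENSMUSG00000025792, chromosome 11, 120491840 to 120499187) exchanges malate and succinate for phosphate. It was at 184, 175 and 189.8 CPM in HFD and at 283, 265 and 284 CPM in HFD+Allantoin-H, tight in both groups and without overlap. The log2 fold change was 0.60 (standard error 0.15, adjusted p = 0.0197), and the call was lost without HFD replicate 2 or any one of HFD+Allantoin-H replicates 4 to 6, with log2 fold changes of 0.57 to 0.64 and adjusted p up to 0.0825. An antisense gene with 38 counts overlaps it. Slc25a11, the oxoglutarate/malate carrier that completes the malate-aspartate shuttle, had a log2 fold change of 0.49 ± 0.22 (SE, adjusted p = 0.128), and it shares exon bases with Rnf167 on the other strand, which has 2649 counts against 3968 for Slc25a11. Slc25a1, which exports citrate for lipid synthesis, had a log2 fold change of 0.44 ± 0.18 (SE, adjusted p = 0.0970). In both, the groups did not overlap. With the length and GC trend of each library removed, Slc25a1 passed (0.75, adjusted p = 0.0195) and Slc25a11 reached the threshold (0.66, adjusted p = 0.05). With library size as the only scaling both passed (0.85 and 0.88, adjusted p = 0.0258 and 0.0384). In every other setting neither passed, and without HFD replicate 1 they were at 0.34 and 0.28 (adjusted p = 0.18 and 0.199). Slc25a21, a carrier of oxodicarboxylates, had lower values in every HFD+Allantoin-H library and a log2 fold change of -0.43 (edgeR adjusted p = 0.123), which passed with the length and GC trend removed (-0.56, adjusted p = 0.0372) and was -0.04 with library size as the only scaling. Summed CPM of the class ran from 306 to 355 in HFD and from 459 to 482 in HFD+Allantoin-H.

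The ATP-Mg/phosphate carriers adjust the adenine nucleotide pool of the matrix in response to calcium. Slc25a23 (ENSMUSG00000046329, chromosome 17, 57043711 to 57059863), the most abundant of them per kb, was at 119, 109 and 96.0 CPM in HFD and at 197, 204 and 175 CPM in HFD+Allantoin-H. It rose 1.78-fold without overlap, a log2 fold change of 0.83 ± 0.16 (SE, adjusted p = 0.00883), and this call was lost only without HFD+Allantoin-H replicate 5 (0.79, adjusted p = 0.0523) among the 15 settings. Slc25a24 was low, at 0.983 to 1.19 CPM in HFD and 1.48 to 2.20 CPM in HFD+Allantoin-H, with a log2 change of 0.65 (adjusted p = 0.276). Slc25a25 varied more within than between the groups, with 63.0, 79.2 and 148 CPM in HFD and 82.7, 147 and 109.7 CPM in HFD+Allantoin-H (log2 fold change 0.23, adjusted p = 0.650). Slc25a41 and Slc25a54 had 0 counts in every library, where 3 counts correspond to 0.177 to 0.328 CPM.

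The ADP/ATP and phosphate carriers, which supply ATP synthase and have the highest mean summed CPM of the classes in both groups, had no member that passed the test. In HFD replicate 1 their sum, 345 CPM, was below those of 3 other classes. Slc25a5 was at 181, 337 and 324 CPM in HFD and at 355, 349 and 393 CPM in HFD+Allantoin-H. HFD replicate 1 was far below the rest, and the log2 fold change of 0.38 ± 0.24 (SE, adjusted p = 0.267) did not pass. Pseudogenes nearly identical to Slc25a5 were listed with 202 and 16 counts against its 25518. Slc25a3, the phosphate carrier, differed by less than its spread, with a log2 change of 0.06 ± 0.18 (SE, adjusted p = 0.823). Slc25a4, the ADP/ATP carrier of heart and muscle, was at 3.82, 14.9 and 3.01 CPM in HFD and 5.50, 3.08 and 5.47 CPM in HFD+Allantoin-H. Its single high value was in HFD replicate 2, the library with the adipocyte transcripts. That library also held 46 of the 47 counts of Acta1, a skeletal muscle marker. The part of these transcripts in it was not tested. Slc25a31, a testis carrier, had 3 counts in HFD replicate 3, 7 and 2 in HFD+Allantoin-H replicates 5 and 6 and 0 in the others.

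Of the carriers of other amino acids, Slc25a44 rose. Slc25a44 (ENSMUSG00000050144, chromosome 3, 88410498 to 88425139) imports branched-chain amino acids and was at 21.4, 15.7 and 19.0 CPM in HFD and at 32.4, 38.1 and 32.1 CPM in HFD+Allantoin-H. The groups did not overlap, and the log2 fold change was 0.87 (standard error 0.18, adjusted p = 0.00991), lost only without HFD+Allantoin-H replicate 5 (0.79, adjusted p = 0.0556) among the 15 settings. Slc25a15, the ornithine/citrulline exchanger of the urea cycle and the most abundant of the class, was at 109, 173 and 177 CPM in HFD and at 226, 257 and 216 CPM in HFD+Allantoin-H. All HFD+Allantoin-H values were above all HFD values, but the log2 fold change of 0.61 ± 0.21 (SE, adjusted p = 0.0657) missed the threshold. DESeq2 called it (adjusted p = 0.0302), as did the fits without a filter (0.0222), without HFD replicate 3 (0.0379) and with library size as the only scaling (0.0255). In every other setting it was not called. Its log2 fold change was 0.41 without HFD replicate 1 (adjusted p = 0.0915) and 0.47 with the length and GC trend removed (adjusted p = 0.135). Without HFD+Allantoin-H replicate 5 it was 0.54 (adjusted p = 0.205). The glycine carrier Slc25a38 and the basic amino acid carrier Slc25a29 had log2 fold changes of -0.17 and 0.64 (adjusted p = 0.598 and 0.337). Slc25a2 had at most 7 counts in a library and was not tested.

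No carrier of acylcarnitine or coenzyme A passed the test. Slc25a20, which brings acylcarnitines to the matrix for oxidation, was at 143, 183 and 189.9 CPM in HFD and at 177, 165 and 163 CPM in HFD+Allantoin-H. The groups overlapped, and the log2 fold change was -0.03 (standard error 0.17, adjusted p = 0.911). The coenzyme A carriers Slc25a42 and Slc25a16 and the peroxisomal carrier Slc25a17 had log2 fold changes of 0.08, -0.08 and -0.12 (adjusted p = 0.861, 0.750 and 0.713). The summed CPM of this class was the most even of all, at 361 to 373 in HFD and 349.8 to 363 in HFD+Allantoin-H.

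In the class of vitamins, S-adenosylmethionine, NAD and glutathione, one carrier fell. Slc25a51 (ENSMUSG00000045973, chromosome 4, 45395923 to 45408766), which imports NAD, was at 73.1, 53.4 and 58.7 CPM in HFD and at 36.7, 38.0 and 29.0 CPM in HFD+Allantoin-H. Its values did not overlap between the groups and were 1.79-fold lower with allantoin, a log2 fold change of -0.84 ± 0.18 (SE, adjusted p = 0.0138). The call was lost with library size as the only scaling (-0.40, adjusted p = 0.155) and without any one of HFD+Allantoin-H replicates 4 to 6 (-0.91 to -0.72, adjusted p up to 0.0632). Slc25a39, the major glutathione carrier, was at 244, 278 and 277 CPM in HFD and at 329.8, 354 and 302 CPM in HFD+Allantoin-H. These groups did not overlap, but the log2 fold change of 0.30 ± 0.16 (SE, adjusted p = 0.187) did not pass. It passed after removal of the length and GC trend (0.62, adjusted p = 0.0246) and with library size as the only scaling (0.71, adjusted p = 0.0362). Slc25a32, a carrier of folate and FAD, showed a log2 fold change of 0.51 (edgeR adjusted p = 0.123) and passed without HFD replicate 3 (0.74, adjusted p = 0.0242) and with library size as the only scaling (0.91, adjusted p = 0.0319). Slc25a40 and Slc25a26, carriers of glutathione and S-adenosylmethionine, had log2 fold changes of 0.47 and -0.32 (adjusted p = 0.378 and 0.368). Slc25a26 overlaps Lrig1 on the other strand, which has 1439 counts in all against its 540, so that its reads are uncertain if strand was not used.

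Of the pyrimidine nucleotide carriers, which feed mitochondrial DNA and RNA synthesis, Slc25a36 fell and Slc25a33 did not pass the test. Slc25a36 (ENSMUSG00000032449, chromosome 9, 97074961 to 97111157) was at 5.02, 5.73 and 3.43 CPM in HFD and at 1.61, 1.89 and 2.36 CPM in HFD+Allantoin-H, with 22 to 58 counts per library. It fell without overlap, and its log2 fold change of -1.26 ± 0.35 (SE, adjusted p = 0.0300) was the lowest of the family. The call was lost with library size as the only scaling (-0.84, adjusted p = 0.0896) and without HFD replicate 1 or 2 or any one of HFD+Allantoin-H replicates 4 to 6 (-1.42 to -1.10, adjusted p up to 0.117). Slc25a33 was at 14.3, 19.4 and 14.0 CPM in HFD and at 19.4, 15 and 13.1 CPM in HFD+Allantoin-H, with overlapping groups and an adjusted p of 0.992. The log2 ratio of Slc25a33 to Slc25a36 was 1.51, 1.76 and 2.03 in HFD and 3.59, 2.98 and 2.47 in HFD+Allantoin-H. This was the only one of 8 paralog pairs without overlap, and the difference of 1.25 had an exact two-sided permutation p of 0.1, the smallest that 3 against 3 libraries allow (adjusted p = 0.533 over the 8 pairs). The other pairs had exact p-values from 0.2 to 1.

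The iron carriers (mitoferrins), which supply heme and iron-sulfur cluster synthesis, did not pass the test. Slc25a37 was at 33.6, 25.4 and 20.8 CPM in HFD and at 23.8, 28.2 and 29.0 CPM in HFD+Allantoin-H, with a log2 change of 0.02 ± 0.20 (SE, adjusted p = 0.953). Slc25a28 showed a log2 fold change of 0.29 (edgeR adjusted p = 0.359) and passed with library size as the only scaling (0.73, adjusted p = 0.0285). Among the carriers related to uncoupling proteins, Slc25a30 was at 25.7, 34.6 and 181 CPM in HFD and at 33.5, 84.5 and 62.7 CPM in HFD+Allantoin-H. HFD replicate 3, the library with high Sox9, was far above the other HFD libraries, and without it the log2 ratio of the summed CPM of this class went from -0.40 to 0.93. Slc25a14 had a log2 fold change of 0.27 ± 0.64 (SE, adjusted p = 0.797), and Slc25a27, with 3 to 17 counts per library, was not tested.

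The remaining 8 members were given no substrate class. Slc25a48 (ENSMUSG00000021509, chromosome 13, 56438355 to 56474239) was at 9.28, 8.39 and 7.44 CPM in HFD and at 15.4, 17.8 and 13.3 CPM in HFD+Allantoin-H. It rose 1.85-fold without overlap (log2 fold change 0.89, standard error 0.20, adjusted p = 0.0151), and the call did not hold without HFD+Allantoin-H replicate 4 or 5 (0.90 and 0.78, adjusted p = 0.0608 and 0.0820). Slc25a46 (ENSMUSG00000024259), which lies in the outer membrane and takes part in mitochondrial fission and fusion, was at 19.3, 25.4 and 30.6 CPM in HFD and at 41.9, 40.1 and 42.0 CPM in HFD+Allantoin-H. The HFD+Allantoin-H values were close together and above all HFD values, with a log2 change of 0.72 ± 0.19 (SE, adjusted p = 0.0263) that lost its call without HFD replicate 2 or any one of HFD+Allantoin-H replicates 4 to 6 (0.71 to 0.75, adjusted p up to 0.0880). Slc25a45 (ENSMUSG00000024818, chromosome 19, 5877808 to 5885878) was at 36.8, 36.0 and 29.7 CPM in HFD and at 21, 17.2 and 15.8 CPM in HFD+Allantoin-H. It fell without overlap and was 1.90-fold lower (log2 fold change -0.93, standard error 0.18, adjusted p = 0.00849). The call was lost with library size as the only scaling (-0.50, adjusted p = 0.0847) and without HFD+Allantoin-H replicate 5 (-0.89, adjusted p = 0.0517). Slc25a47, second in level, was at 376, 375 and 233 CPM in HFD and at 414, 411 and 269 CPM in HFD+Allantoin-H, with a log2 change of 0.15 (adjusted p = 0.683). Slc25a34, Slc25a35 and Slc25a53 had log2 fold changes of -0.56, -0.53 and 0.36 (adjusted p = 0.490, 0.393 and 0.683). For Slc25a34 the HFD values were 9.17, 10.5 and 1.59 CPM, and without HFD replicate 3 its log2 fold change was -1.04 and passed (adjusted p = 0.0149). Slc25a43 had at most 2 counts in a library. Genes that overlap Slc25a46 and Slc25a23 on the other strand were listed with 31 and 2 counts in all, and a pseudogene nearly identical to Slc25a36 with 2.

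**Figure D3:**
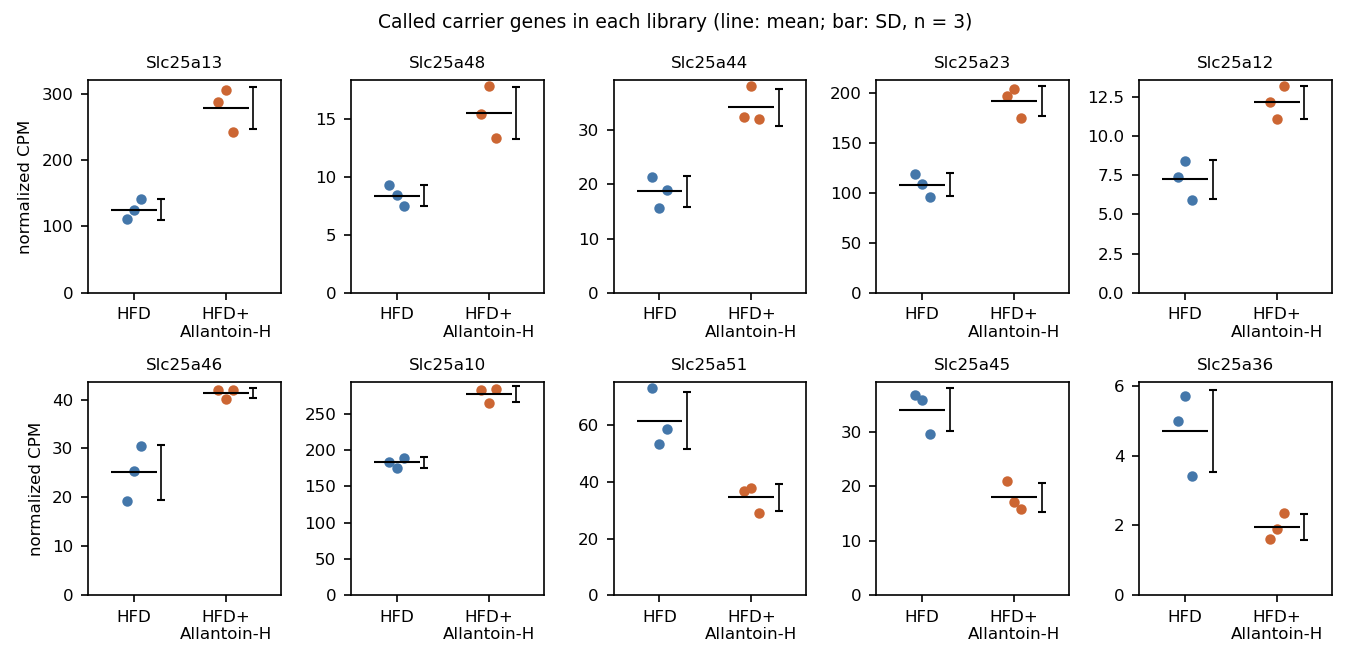
Normalized CPM (axes from 0) of the 10 called Slc25a genes in each library, HFD in blue and HFD+Allantoin-H in orange, with the group mean as a line and the SD as a bar (n = 3). In each of the 10 genes the groups do not overlap; Slc25a13 rises from between 110.5 and 141 CPM to between 243 and 305 CPM, and Slc25a36 falls from between 3.43 and 5.73 CPM to between 1.61 and 2.36 CPM.

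Shares within the family do not depend on how libraries are scaled, since every carrier of a library is divided by the same factor. Slc25a13 made up 3.17% to 3.65% of the family's summed CPM per kb in HFD and 5.64% to 6.38% in HFD+Allantoin-H. Slc25a23 went from between 2.31% and 3.30% to between 3.76% and 3.97%, and Slc25a44 from between 0.349% and 0.558% to between 0.610% and 0.696%. Slc25a10 was nearest to overlap, with 6.86% to 8.47% in HFD and 8.54% to 10.1% in HFD+Allantoin-H. On the side of the lower carriers, Slc25a51 went from between 0.956% and 1.54% to between 0.471% and 0.559%, Slc25a45 from between 0.923% and 1.32% to between 0.431% and 0.543%, and Slc25a36 from between 0.0530% and 0.0896% to between 0.0208% and 0.0327%. The shares were without overlap between the groups in 17 of the 40 tested carriers (42.5%), 9 higher and 8 lower in HFD+Allantoin-H. CPM did not overlap in 44.3% of all tested genes, and such shares were not computed for other genes. The 17 carriers were found from the same counts as the calls. They included the 10 called carriers and 7 that were not called, among them Slc25a15 and Slc25a24 with higher and Slc25a20, Slc25a21, Slc25a26 and Slc25a35 with lower shares. Slc25a39 had an even share, 13.1% to 13.5% in HFD and 12.9% to 13.7% in HFD+Allantoin-H. Slc25a20 took 4.84% to 5.58% of the family in HFD and 3.92% to 4.33% in HFD+Allantoin-H, while its own CPM overlapped. Its log2 fold change was -0.03. The sum that shares are divided by was itself higher with allantoin, at 1073 to 1259 CPM per kb in HFD and 1384 to 1531 in HFD+Allantoin-H. A carrier with even CPM thus loses share, and a lower share alone is not a lower level.

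By class, summed CPM did not overlap between the groups for the carriers of aspartate and glutamate, of ATP-Mg/phosphate, of other amino acids and of di- and tricarboxylates. The ratio of the mean sums of HFD+Allantoin-H to HFD was 1.50, 1.49, 1.47 and 1.42 in these 4 classes. In each of them 1 or 2 members were called higher and none lower, with median log2 fold changes of 0.75, 0.65, 0.62 and 0.47. Abundant members weigh most in these sums, called or not. Slc25a15, not called, had means of 153 and 233 CPM in sums of 197 and 290.3 CPM for other amino acids. For aspartate and glutamate, with sums of 268 and 403 CPM, Slc25a13 went from 125 to 279 CPM and Slc25a22 from 135 to 112 CPM. The other 7 classes overlapped, with ratios from 0.755 for the carriers related to uncoupling proteins to 1.19 for the ADP/ATP and phosphate carriers. As background, the groups did not overlap in 44.3% of all tested genes. The summed CPM of the whole family did not overlap either, at 2561 to 2908 in HFD and 3159 to 3582 in HFD+Allantoin-H. With library size as the only scaling, the median log2 fold change over all genes went from -0.03 to 0.38, and the log2 ratios of the 4 classes became 0.91 to 1.02. Under that scaling the carnitine and coenzyme A class went from -0.04 to 0.38 and the pyrimidine class from -0.21 to 0.21.

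**Figure D4:**
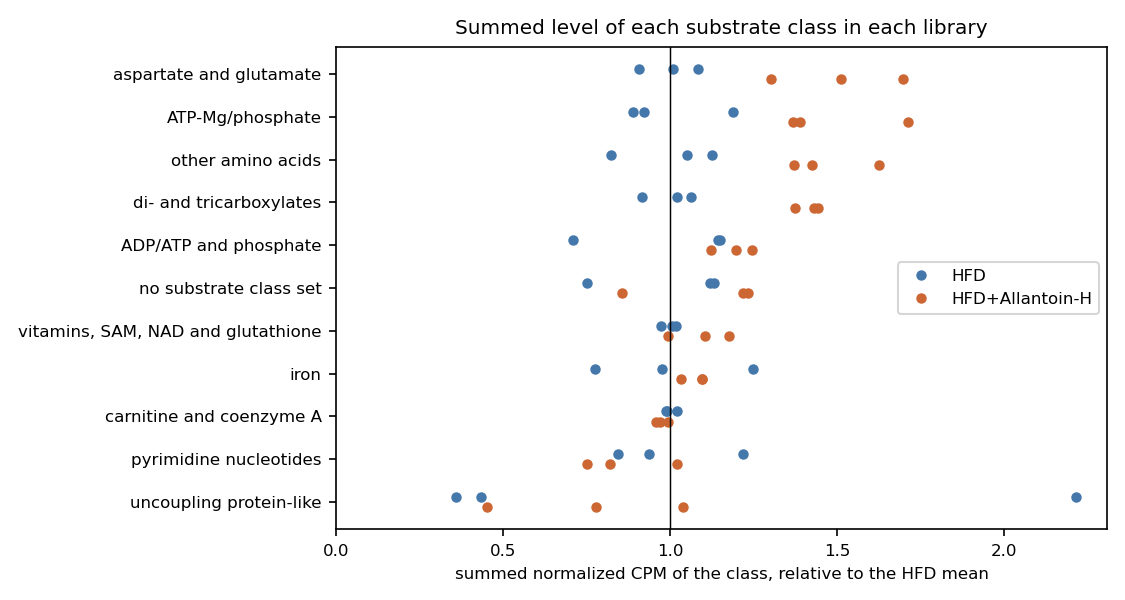
Summed normalized CPM of each substrate class in each of the 6 libraries, divided by the HFD mean of the class (horizontal axis from 0). The groups separate in 4 of 11 classes, with ratios of the means of 1.42 to 1.50 (TMM scaling), where 44.3% of all tested genes separate. Carnitine and coenzyme A stays at 0.974, a direction that turns when library size is the only scaling. In the uncoupling protein-like class 1 HFD library lies far to the right.

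Some markers of other liver cells differed between the groups. Over all tested genes, 11.3% were called higher and 13.0% lower. Of 8 macrophage markers 3 (Adgre1, Cd5l and Vsig4, log2 fold changes of 2.71, 1.6 and 1.44) were called higher and none lower. Of those not called, Marco and Csf1r had log2 fold changes of 1.29 and 0.85, and Clec4f, Cd68 and Timd4 of 0.29, -0.01 and -0.1. The summed CPM of all 8 was 109.7 to 262 in HFD and 305 to 343 in HFD+Allantoin-H. Of 8 stellate cell markers 6 were called higher and none lower, and these 6 had log2 fold changes from 0.97 for Colec11 to 2.83 for Hgf. Pdgfrb and Des were not called, with log2 fold changes of 0.40 and -0.02. All 8 stellate markers together summed to 143 to 215 CPM in HFD and 358 to 410.1 CPM in HFD+Allantoin-H. The 8 endothelial markers had none called, and their sums of 83.9 to 163 and 146 to 225 CPM overlapped. For 10 hepatocyte markers, 1 was called higher (Apob, 0.92) and 3 lower (Trf, Apoa1 and Ttr, -1.33, -1.23 and -0.79), and the sums of 95515 to 98644 and 83253 to 113032 CPM overlapped. Erythroid markers had none called among 6 tested, with the lowest sum, 332 CPM, in HFD replicate 3 against 879 to 1339 CPM elsewhere. The sums of 5 neutrophil markers were 8.0 to 11.2 CPM in HFD and 2.07 to 6.48 CPM in HFD+Allantoin-H, with none called among 3 tested. Of 8 skeletal muscle markers, Ckm, Myh4, Myh1 and Tnnt3 were at 0 in every library. Acta1 had 46 of its 47 counts in HFD replicate 2, and Actn3 had 5 of its 6 there. Mylpf had 8 to 12 counts per library in HFD and 4 to 10 in HFD+Allantoin-H, and Pygm had 2 to 10 and 16 to 24. Of the other lists, adipocyte, brown adipocyte and cholangiocyte markers had 1 called lower each among 4, 3 and 3 tested genes (Plin4, Elovl3 and Sox9, -1.71, -1.86 and -3.17), and none was called among 3 tested T and B cell markers, 2 pancreatic acinar markers and 1 skeletal muscle marker. Plin4 was highest in HFD replicate 1, at 100.3 CPM, where Adipoq was at 0. Elovl3 was at 157 and 169.7 CPM in HFD replicates 1 and 3, where Ucp1 had 0 counts. The calls of Plin4 and Elovl3 are thus no measure of adipocyte content. The part of other liver cells in the values of the carriers was not tested. Without the genes of the mitochondrial chromosome, the same 10 carriers were called.

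Carriers of the same fold that have other symbols were measured beside the family, where 11.3% of all tested genes were called higher and 13.0% lower. Ucp2, an uncoupling protein known from macrophages and other cells, rose from 25.2 to 33.8 CPM in HFD to 40.4 to 55.5 CPM in HFD+Allantoin-H (log2 fold change 0.74, standard error 0.19, adjusted p = 0.0232). Mtch1, a carrier homolog of the outer membrane, also rose (0.86, standard error 0.23, adjusted p = 0.0271), and Mtch2 showed a log2 fold change of 0.09 (edgeR adjusted p = 0.710). The calls of Ucp2 and Mtch1 were lost without HFD replicate 1 or HFD+Allantoin-H replicate 5, that of Ucp2 also without replicate 6 and that of Mtch1 without replicate 4 (highest adjusted p over 15 settings 0.0935 and 0.106). Over these settings the log2 fold change was 0.61 to 1.15 for Ucp2 and 0.70 to 1.27 for Mtch1. Ucp1, the uncoupling protein of brown fat, had 26 counts, all in HFD replicate 2, and 24 of the 33 counts of Ucp3 were in the same library. Among 14 tested genes of other mitochondrial transport proteins, Sfxn5 (a sideroflexin, 0.64, adjusted p = 0.0260) and Vdac1 (the main outer membrane channel, 0.71, adjusted p = 0.0322) rose and Mcu, the calcium uniporter, fell (-0.74, adjusted p = 0.0223), each of them losing its call without HFD+Allantoin-H replicate 4, 5 or 6 (highest adjusted p over 15 settings 0.12, 0.113 and 0.240). Vdac1 also lost it without HFD replicate 2, and Mcu with library size as the only scaling. Their log2 fold changes over the settings were 0.52 to 1.06, 0.53 to 1.10 and -0.83 to -0.32.

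Enzymes that meet the carriers at their substrates did not share one direction. The background to their calls is 11.3% of all tested genes called higher and 13.0% lower. None of 4 malate-aspartate shuttle enzymes was called, with a median log2 fold change of 0.42, beside the increase of Slc25a13. Their summed CPM was nonetheless higher without overlap, at 765 to 1157 in HFD and 1252 to 1381 in HFD+Allantoin-H. In the list of citrate export, 1 of 3 rose, Acly, which splits citrate in the cytosol (0.96, standard error 0.20, adjusted p = 0.0120). Of 6 urea cycle enzymes, Cps1, which forms carbamoyl phosphate, rose (1.05, standard error 0.31, adjusted p = 0.0385), while Arg1 and Otc, arginase and ornithine transcarbamylase, fell (-0.75 and -0.56, adjusted p = 0.0239 and 0.0413). Of 3 tested enzymes of the carnitine shuttle, Cpt1a, which forms acylcarnitine at the outer membrane, rose (0.95, standard error 0.20, adjusted p = 0.0106), beside the log2 fold change of -0.03 for Slc25a20. The calls of Acly and Cpt1a were lost only without HFD+Allantoin-H replicate 5 (adjusted p = 0.0614 and 0.0529) among 15 settings, with log2 fold changes of 0.81 to 1.36 and 0.75 to 1.37. Those of the urea cycle enzymes were less stable, with Cps1 called in 9, Arg1 in 10 and Otc in 7 of 15 settings, and each was lost without HFD replicate 2 or any one of HFD+Allantoin-H replicates 4 to 6. Over the 15 settings their adjusted p reached 0.148, 0.312 and 0.637, their log2 fold changes ran from 0.73 to 1.44, from -0.87 to -0.33 and from -0.70 to -0.15, and Arg1 and Otc were not called with library size as the only scaling (-0.33 and -0.15).

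ATP synthase, which the ADP/ATP and phosphate carriers serve, had 1 of 12 core subunits called higher and 5 lower. Among all tested genes 11.3% were called higher and 13.0% lower. The higher one was Atp5b, the catalytic beta subunit, at 251, 576 and 484 CPM in HFD and at 879, 883 and 767 CPM in HFD+Allantoin-H (log2 fold change 0.95, standard error 0.28, adjusted p = 0.0395), a call lost without any one of HFD+Allantoin-H replicates 4 to 6 (highest adjusted p over 15 settings 0.119). Atp5a1, the alpha subunit, had higher values in every HFD+Allantoin-H library and did not pass (0.71, adjusted p = 0.0600). Atp5j, a subunit of the peripheral stalk, was at 279, 286 and 264 CPM in HFD and at 133, 123 and 125 CPM in HFD+Allantoin-H (log2 fold change -1.12, standard error 0.15, adjusted p = 0.00337). Atp5g1, Atp5e and Atp5h fell as well (-1.04, -1.20 and -1.04, adjusted p = 0.00386, 0.00389 and 0.00396), and these 4 were called in 15 of 15 settings. Atp5o fell with a log2 change of -0.77 (adjusted p = 0.00769) and was not called without HFD+Allantoin-H replicate 5 or with library size as the only scaling. Neither Slc25a5 nor Slc25a3 was called beside them. Among 5 enzymes of iron-sulfur clusters and heme, Fech, which inserts iron into protoporphyrin to form heme, rose from 79.5 to 85.8 CPM to 134 to 144 CPM (0.77, standard error 0.14, adjusted p = 0.00817) and was called in 15 of 15 settings. Nfs1 and Alas1 rose (0.68 and 0.91, adjusted p = 0.0130 and 0.0371) and Iscu, the cluster scaffold, fell (-0.78, adjusted p = 0.00853), while the mitoferrins Slc25a37 and Slc25a28 did not pass. Without HFD+Allantoin-H replicate 5 the calls of Nfs1, Alas1 and Iscu were lost, that of Iscu also without replicate 4 and with library size as the only scaling, and that of Alas1 without HFD replicate 1 or 2 or HFD+Allantoin-H replicate 4 or 6 and with the length and GC trend removed (highest adjusted p over 15 settings 0.0703 for Nfs1, 0.12 for Alas1 and 0.192 for Iscu). Their log2 fold changes over these settings were 0.63 to 1.10, 0.68 to 1.29 and -0.84 to -0.38.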

How the data were processed

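Liver RNA of 6 libraries was sequenced on an Illumina platform after SMARTer library preparation. The authors deposited whole-number read counts per gene, not normalized. The submitters' processing notes name GRCm38 and mm10; the aligner, the counting tool and its strand setting are not given in the sources used here. Gene symbols, positions and lengths were taken from GENCODE M21, in which 54495 of 54532 identifiers were found. A further 429 features without an Ensembl identifier (0.197% to 0.306% of counts) were left out.

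Counts were tested with edgeR 4.0.16 in R 4.3.3 (TMM, filterByExpr, quasi-likelihood test) with Benjamini-Hochberg adjustment over 12795 genes, and every adjusted p of a gene is from this test unless another setting is named. Standard errors were derived from the F statistic. Log2 fold changes are HFD+Allantoin-H over HFD. The fits were also run on simulated counts in which few genes changed, each by more than any carrier did here. Those runs cannot show how the fits behave at changes of the size seen here. Ratios of paralogs were compared by exact two-sided permutation tests. Copies with at least 95% identity over 200 bases were searched with BLAST 2.17.0. The 15 alternative settings were RLE, upper-quartile and library-size scaling, DESeq2 1.42.0, limma-voom (limma 3.58.1), no filter and a minimum of 10 counts in each library. They also included no mitochondrial chromosome, removal of each library's length and GC trend (splines with 5 degrees of freedom) and leaving out each library. An adjusted p under 0.01 in the main fit was applied as well and is not among the 15 settings.

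All members entered the fits, counts and class sums, and 1 tested member is not reported here by name. Values in every library are given for called members and the highest member of each class per kb; of the transporter and enzyme lists, called genes are named, at most 4 per list by smallest p, and other names (Atp5b, Atp5a1, Atp5o, the cell type markers, Mtch2, Ucp1, Ucp3, Adipoq and Alb) were chosen after their values were seen. The members, the 11 substrate classes and the 20 related lists, written from general knowledge, were chosen with earlier results of these data known. Libraries of one group differed beyond sampling noise. The labels do not say that each library is one mouse, so that p-values measure the spread between libraries, and no batch or date is given.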

Additional observations from a re-analysis of the deposited data

How the results depend on the processing

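The 7 higher and 3 lower calls were the same genes with RLE and upper-quartile scaling, limma-voom, at least 10 counts in every library and without the mitochondrial chromosome. DESeq2 gave 8 higher and 3 lower (27.5% of tested carriers, against 29.0% of all genes), no filter gave 8 and 4 (26.7%, against 16.7%), and removing the length and GC trend gave 9 and 4 (32.5%, against 23.3%), in which Slc25a12 was lost and Slc25a1, Slc25a11, Slc25a21 and Slc25a39 were gained. With library size as the only scaling 13 carriers were called higher and 0 lower (32.5%, against 30.0% of all genes; 19 had an unadjusted p under 0.05), and the median log2 fold change was 0.60 against 0.38 for all genes. At an adjusted p under 0.01 there were 3 higher and 1 lower. With at least 10 counts in every library 36 carriers were tested, and the median was 0.08. Leaving out 1 library at a time gave 1 to 8 higher, 0 to 5 lower and medians of 0.04 to 0.25. The log2 fold changes of the 10 called carriers kept their sign in all 15 settings.

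With library size as the only scaling, the log2 ratios of summed CPM were 1.02 for aspartate and glutamate, 0.98 for ATP-Mg/phosphate, 0.96 for other amino acids, 0.91 for di- and tricarboxylates, 0.64 for ADP/ATP and phosphate, 0.58 without a class set, 0.55 for iron, 0.54 for vitamins, SAM, NAD and glutathione, 0.38 for carnitine and coenzyme A and 0.21 for pyrimidine nucleotides. That of the uncoupling protein-like class ran from -0.81 to 0.93 when 1 library was left out. Carriers with low counts are limited by depth: 3 counts correspond to 0.177 to 0.328 CPM, and 7 members were not tested. No paired analysis was possible because the groups share no replicate numbers.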
